A study of Mus musculus with 12 samples.

Results

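The genes described here encode the receptor subunits that open or signal on binding glutamate, GABA, glycine or acetylcholine. Members were every entry of the deposited expression table whose name begins with Gria, Grik, Grin, Grid or Grm and a digit, with Gabr, with Glra or Glrb, or with Chrn, leaving out Chrna9 and Chrna10. The rule found 67 of 37432 genes, of which 64 encode subunits. The other 3 carry a matching name but are no subunit, namely the antisense genes Chrna1os and Grin1os and the scaffold gene Grid2ip. Of the 67 members, 33 reached an expression level of 1 FPKM (a count of fragments divided by transcript length and by library size) in 2 or more libraries, and 31 of these encode subunits. That is 49.3% of the members, against 43.3% of all genes in the table.

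RNA-seq was performed on the cochlea, the coiled hearing organ, cut into 3 equal pieces called the apical, middle and basal turns, from male mice at P14. Wild-type mice, bought from a supplier, were compared with homozygous mice that carry the 35delG frameshift on each allele of Gjb2, the gene of the gap junction protein connexin 26 (the genotype tag of the homozygous samples reads KO). The homozygous mice grew wholly from embryonic stem cells injected into tetraploid embryos, on a background close to C57BL/6J, were delivered by caesarean section and were nursed by ICR females, so that genotype and origin cannot be told apart. Each genotype had 2 libraries per turn, named here apical, middle or basal 1 and 2, which gives 12 libraries in 6 groups. No treatment was given, and the number of mice and stem cell lines behind a library is not given in the sources used here. The study describes the 2 libraries of a group as biological repeats. P-values measure the spread between libraries, which may still be partly technical.

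Fast excitation in the cochlea runs on glutamate, which inner hair cells release onto AMPA receptors, built from Gria subunits, on the spiral ganglion neurons. NMDA receptors need the obligatory Grin1 subunit, and kainate (Grik) and metabotropic (Grm) receptors adjust the strength of glutamate synapses. GABA-A, glycine and nicotinic receptors belong to the family of pentameric ligand-gated channels, in which different combinations of subunits give different channels, and muscle uses its own nicotinic combination.

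Levels below are FPKM divided by a scaling factor per library, in the order 1 and 2 within a group. The deposited values hold no whole-read steps, so that the depth of each library is unknown and only the spread between libraries measures precision. Libraries differed in the tissue they held. The summed level of 13 neuron markers, all detected, was 717 and 1051 in wild-type apical, 201 and 388 in homozygous apical, 1732 and 1854 in wild-type middle, 416 and 55.7 in homozygous middle, 17.6 and 915 in wild-type basal, and 3193 and 3621 in homozygous basal libraries. The neuron marker sum was thus lower in homozygous than in wild-type libraries of the apical and middle turns and higher in the basal turn, and wild-type basal 1 held hardly any. Summed oligodendrocyte markers, which belong to the brain side of the auditory nerve, reached 987 in wild-type middle 1, 293 in wild-type basal 2, and 300.0 and 443 in homozygous basal, against 0.623 to 9.68 in the other 8 libraries. Gjb2 itself ranged over wild-type libraries from 139.7 to 434 and over homozygous libraries from 58.6 to 451, and a level of RNA does not show a frameshift. In such pieces of tissue, fewer cells of a type and less RNA per cell cannot be told apart.

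The receptor RNA of the cochlea was uneven between families. All 4 AMPA and all 5 kainate genes reached 1 FPKM in 2 or more libraries, as did 2 of 2 delta and 4 of 7 NMDA genes, 3 of 8 metabotropic glutamate genes, 4 of 19 GABA-A genes, 2 of 5 glycine genes, 4 of 9 neuronal and 3 of 5 muscle nicotinic genes. Only 7 members were at 1 FPKM or more in every library, among them Gria3, Gria4, Grik5, Glrb, Glra3 and Chrnb1. At the threshold, 7 members reached it in exactly 2 libraries, with highest levels of 1.09 (Chrna1) to 11.3 (Chrna6), and 10 reached it in exactly 1 library, with highest scaled levels of 0.981 (Gabrg3) to 5.48 (Gabrp). The remaining 24 reached it nowhere, 11 members never passed 0.1 FPKM, and Gabrr3, a GABA-C type subunit, was listed at 0 in every library. The non-subunit members had means over the 12 libraries of 2.30 (Grid2ip), 1.22 (Chrna1os) and 0.367 FPKM (Grin1os). Of the 33 members above the threshold, 10 were highest in homozygous basal 1 and 5 in homozygous basal 2.

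**Figure D1:**
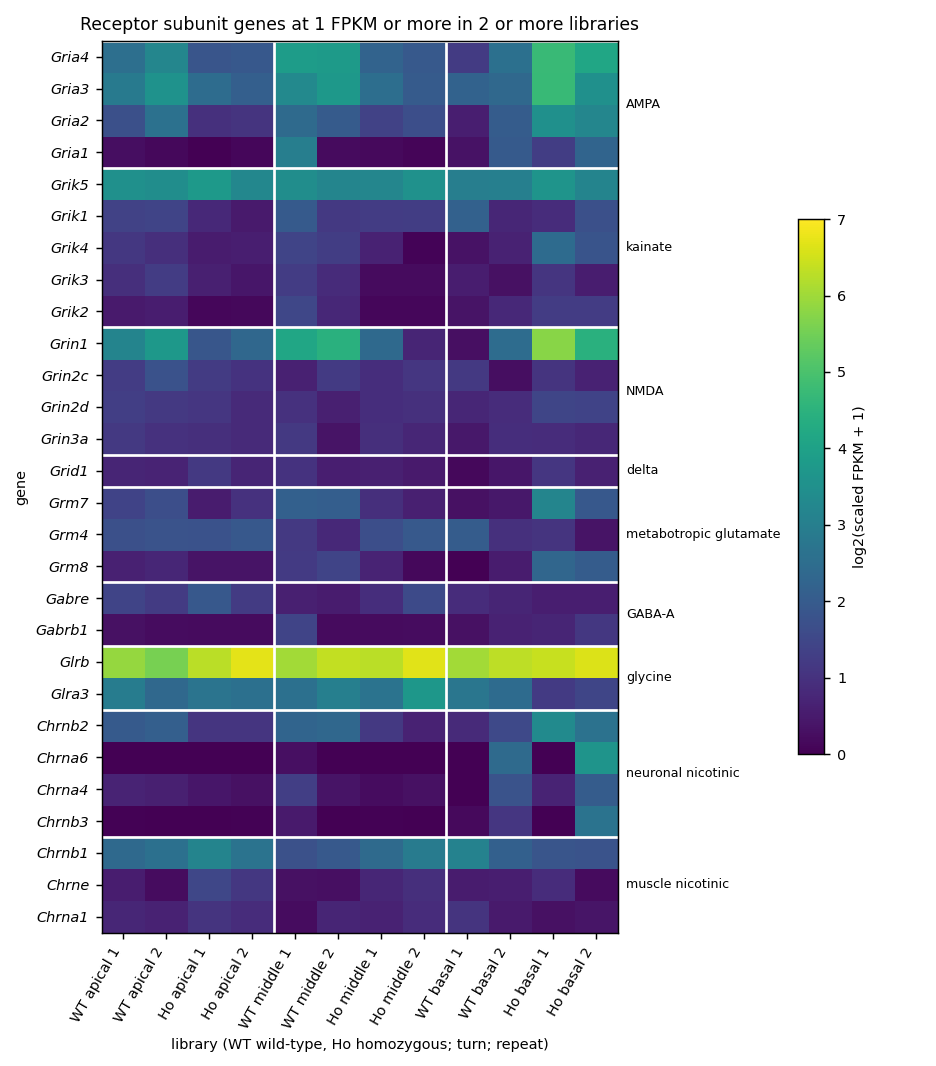
Levels of 28 of the 31 subunit genes that reached 1 FPKM in 2 or more libraries, as log2(scaled FPKM + 1), with a row for each gene grouped by receptor family and a column for each library grouped by turn. Glrb is the brightest row at 46.7 to 103 FPKM, and Grin1 and the AMPA genes Gria3 and Gria4 brighten in wild-type middle and homozygous basal libraries.

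Among the AMPA genes, Gria4 (ENSMUSG00000025892.16, mm10 chr9:4417896-4796234) and Gria3 (ENSMUSG00000001986.16, chrX:41401128-41678601) had the highest means over the 12 libraries, 8.38 and 8.11 FPKM. Gria4 stood at 4.88 and 8.24 in wild-type against 2.61 and 2.82 in homozygous apical libraries, at 13.6 and 12.9 against 3.68 and 2.86 in the middle turn, and at 1.33 and 4.99 against 25.9 and 16.8 in the basal turn. The genotypes did not overlap in any turn, with the homozygous libraries lower in the apical and middle turns and higher in the basal turn. Gria3 stood at 6.35 and 10.9 against 4.55 and 3.35 in the apical turn, 8.78 and 12.4 against 4.75 and 3.06 in the middle turn, and 3.61 and 4.13 against 25.1 and 10.3 in the basal turn, with the same order of groups. Gria2, whose edited subunit makes AMPA receptors impermeable to calcium, was lower, and ranged over wild-type libraries from 0.495 to 5.12 and over homozygous libraries from 0.964 to 10.3. In the basal turn it was at 0.495 and 3.12 against 10.3 and 8.19. Its share of the summed Gria1 to Gria4 level was 15.1% on average in wild-type and 17.8% in homozygous libraries. The difference of 2.78 percentage points did not pass an exact permutation test of genotypes within turns (two-sided p = 0.444, adjusted p = 1 over 5 shares), which could reach 0.00926 at the least. The homozygous share was higher in 2 of the 3 turns.

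The NMDA genes were dominated by Grin1 (ENSMUSG00000026959.13, chr2:25291181-25319187). It stood at 7.95 and 12.3 against 2.66 and 4.06 in the apical turn, at 16.7 and 20.8 against 4.27 and 0.662 in the middle turn, and at 0.226 and 4.59 in wild-type against 52.6 and 20.8 in homozygous basal libraries. As for Gria4, the genotypes were apart in every turn. Its exons share 13.5% of their bases with Grin1os on the opposite strand, and without a stated strand setting their reads cannot be told apart. The partner subunits that bind glutamate were low. Grin2c had a mean of 1.09 and Grin2d of 1.08 FPKM, and Grin2a and Grin2b, the main partners in the forebrain, lay between 0 and 0.0684. The Grin2b share of the summed Grin2a to Grin2d level was 1.18% in wild-type and 0.931% in homozygous libraries (exact permutation p = 0.602, adjusted p = 1), and that sum was only 1.06 to 3.71 FPKM.

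Grik5, the high-affinity kainate subunit, was among the steadiest members, at 6.91 to 12.4 FPKM over the 12 libraries. Grik4, its relative, was lower and less even. Its level was 1.20 and 0.919 against 0.456 and 0.503 in the apical turn, 1.72 and 1.40 against 0.582 and 0.0559 in the middle turn, and 0.261 and 0.589 against 4.45 and 2.50 in the basal turn. Grik1 lay between 0.409 and 3.47 without a common order of genotypes. Of the metabotropic receptors, Grm7 and Grm8 are presynaptic receptors that damp transmitter release. Grm7 stood at 1.67 and 2.21 against 0.436 and 0.983 in the apical turn, 3.44 and 3.23 against 0.934 and 0.545 in the middle turn, and 0.248 and 0.356 against 8.18 and 2.78 in the basal turn. Grm8 was listed at 0 in wild-type basal 1 and stood at 0.448 in wild-type basal 2, against 3.98 and 3.07 in homozygous basal libraries. Grm4, of the same group of receptors, ran the other way in the basal turn, at 3.13 and 0.969 in wild-type against 1.07 and 0.286 in homozygous libraries, and these overlapped. The delta receptor gene Grid1 was low, with a mean of 0.651 FPKM.

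Glycine receptor RNA was almost all Glrb (ENSMUSG00000028020.16, chr3:80843599-80913660), the beta subunit that ties the receptor to gephyrin at the synapse. It had the highest level of all members, 58.5 and 46.7 in wild-type against 76.0 and 103 in homozygous apical libraries, 64.4 and 81.1 against 76.6 and 101 in the middle turn, and 64.0 and 77.6 against 84.8 and 98.6 in the basal turn. The genotypes were apart in the apical and basal turns, homozygous higher, and overlapped in the middle turn. In wild-type basal 1, where the neuron markers summed to 17.6, Glrb was at 64.0 and Grin1 at 0.226. The beta subunit needs an alpha subunit to bind glycine, and the alpha gene above the threshold was Glra3 at 5.32 FPKM on average. Glra1, Glra2 and Glra4 lay between 0 and 0.391. Glra3 stood at 5.69 and 4.44 in wild-type but 1.27 and 1.75 in homozygous basal libraries, opposite to Glrb, and overlapped between genotypes in the apical and middle turns. The Glra1 share of the summed alpha genes was above 0 in 1 wild-type and 1 homozygous library (exact permutation p = 1, adjusted p = 1), too few for this test to decide.

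GABA-A receptor genes were mostly low. Gabre, the epsilon subunit, stood at 0.461 to 2.80. None of the 6 alpha genes, which GABA-A receptors need for their GABA site, reached 1 FPKM in 2 libraries, and they lay between 0 and 1.55. Of the 4 listed markers of brain inhibitory neurons, the vesicular transporter Slc32a1 and the glycine transporter Slc6a5 lay between 0 and 0.0787 and the GABA-making enzyme Gad2 between 0.00844 and 0.211, whereas Gad1, a second such enzyme, ranged from 0.0633 to 4.86.

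The neuronal nicotinic genes were led by Chrnb2, the beta subunit of the commonest brain receptor, at 2.96 and 3.35 against 1.11 and 1.11 in the apical turn, 3.79 and 4.05 against 1.24 and 0.602 in the middle turn, and 0.767 and 1.91 against 9.20 and 5.17 in the basal turn. It too was apart between genotypes in every turn. Chrnb2 shares 16.3% of its exon bases with Adar on the opposite strand. Chrna6 and Chrna4 had means of 1.33 and 0.838 FPKM that rested on few libraries. Of the muscle genes, Chrnb1 was at 2.31 to 7.90 in every library while the skeletal muscle markers summed to only 1.54 to 6.11 over 9 genes, and Chrnd and Chrng lay between 0 and 0.0945. In the apical and middle turns, Chrnb1 and Chrne had each homozygous library above each wild-type library. In the basal turn, Chrnb1 was at 7.57 and 3.39 against 2.62 and 2.46. The Chrne share of Chrne and Chrng, the adult against the fetal muscle subunit, was 97.4% in wild-type and 94.9% in homozygous libraries (exact permutation p = 0.667, adjusted p = 1), over sums of 0.168 to 1.79 FPKM. The share was 100% in every apical and middle library, so that this test rested on the basal libraries alone and could not decide.

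The comparison in the basal turn asks how the cochlea of homozygous mice differs at the high-frequency end. Here 5 of the 33 tested members rose and none fell at the thresholds of the study, a more than 2-fold change with adjusted p below 0.01. The study applied these thresholds with DESeq2 and not with limma. Over all 16215 genes tested, 4.29% were called in this turn and 2.53% were called higher. Gria4 rose by 2.55 ± 0.41 (SE) on the log2(scaled FPKM + 1) scale (limma, Benjamini-Hochberg adjusted p = 0.00750), Grm7 by 2.18 ± 0.37 (limma adjusted p = 0.00842), Grm8 by 1.90 ± 0.26 (limma adjusted p = 0.00526), Chrnb2 by 1.81 ± 0.31 (limma adjusted p = 0.00831) and Grik4 by 1.62 ± 0.28 (limma adjusted p = 0.00857). These span an AMPA, a kainate, a pair of presynaptic metabotropic and a nicotinic subunit, and in each the 2 homozygous libraries lay above the 2 wild-type libraries. At an adjusted p under 0.05 with no limit on the fold, 9 members were higher, which included Gria2, Gria3 and Grin1, against 9.94% of all genes, and 1 was lower, Glra3, against 8.17% of all genes. The median change of the 33 members was 0.45, against −0.02 over all genes tested, and 15 members had homozygous libraries all higher and 5 all lower, against 26.2% and 27.8% of all genes. The neuron marker sum moved the same way, 17.6 and 915 against 3193 and 3621, and with the mean level of those markers as a covariate 0 members were called. The covariate left the median at 0.30 and the changes of the 5 members between 1.14 and 1.94, with limma adjusted p from 0.0750 to 0.142. The covariate itself differs between these groups, and calls over all genes with it are not printed here. The count of 0 with the covariate therefore cannot be read as particular to the receptor genes. Other marker sums also differed here. Schwann cell markers stood at 613 and 512 in wild-type against 2832 and 4091 in homozygous libraries. Spiral ligament fibrocyte markers stood at 6953 and 6706 against 2525 and 455, supporting cell markers at 395 and 353 against 205 and 202, and erythroid markers at 2601 and 4265 against 367 and 433. Of the fibrocyte list, Coch and Otos were lower, while Slc4a11 and Car3 overlapped, Car3 at 333 and 423 against 518 and 25.3. Gjb6 made up most of the supporting cell sum, at 292 and 271 against 166 and 154. Otog and Fgfr3 were lower as well, whereas Sox2, Tecta and Slc1a3 overlapped. The part of these cell types in the changes was not tested. Leaving out any 1 of the 11 libraries other than wild-type basal 2 left 0 or 1 member called, and leaving out wild-type basal 2 gave 6.

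**Figure D2:**
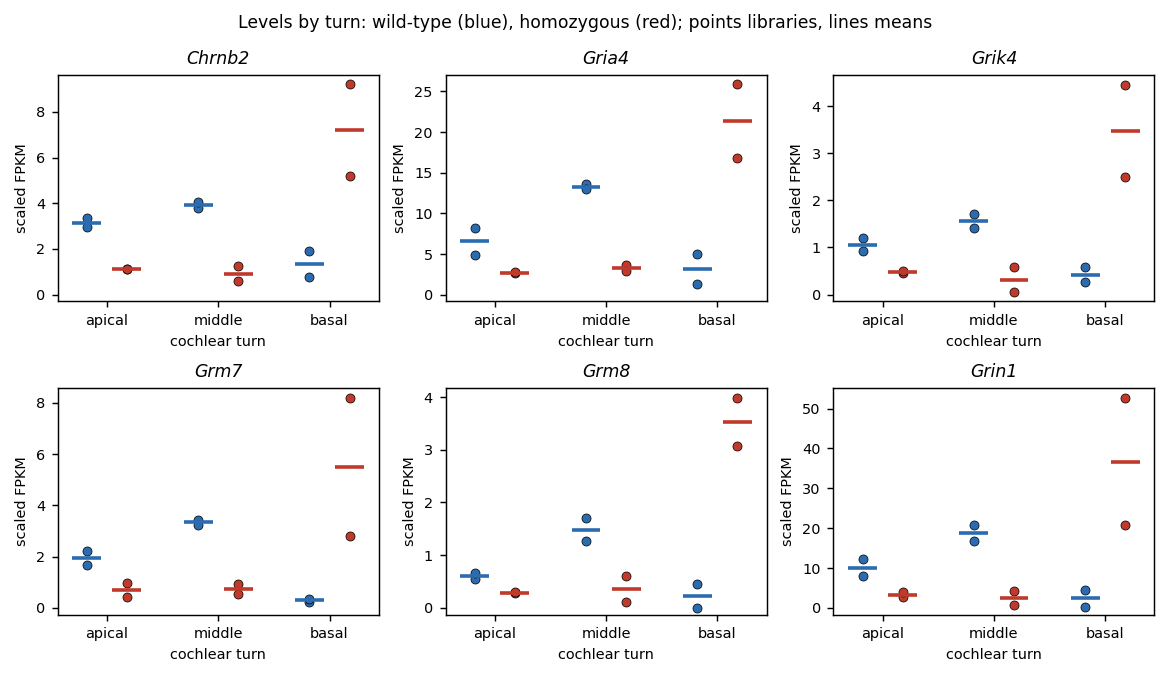
Scaled FPKM of the 5 members called higher in the homozygous basal turn and of Grin1, by turn, with a point for each library and a line for the mean of each group. Homozygous points lie below wild-type points in the apical and middle turns and above them in the basal turn.

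The promoter sequences of the 5 called members are shown because these genes were called together, and that of Gria2 because it holds a match to RE1, the element bound by REST, a repressor that keeps neuronal genes silent outside neurons. Sequences are from RefSeq (GRCm38.p6), 5′ to 3′ on the strand of the gene, the 250 bases before the start, and the first listed start where a gene has several. In Gria2 the capitals mark the element, and in the others they mark every CG dinucleotide.
Gria2 (chr3:80802836-80803085, minus strand): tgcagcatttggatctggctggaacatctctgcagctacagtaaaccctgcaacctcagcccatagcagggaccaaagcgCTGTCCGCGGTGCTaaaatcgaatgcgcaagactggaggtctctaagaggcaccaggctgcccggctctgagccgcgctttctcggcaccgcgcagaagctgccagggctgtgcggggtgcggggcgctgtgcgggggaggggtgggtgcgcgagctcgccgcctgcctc
Gria4 (chr9:4796235-4796484, minus strand): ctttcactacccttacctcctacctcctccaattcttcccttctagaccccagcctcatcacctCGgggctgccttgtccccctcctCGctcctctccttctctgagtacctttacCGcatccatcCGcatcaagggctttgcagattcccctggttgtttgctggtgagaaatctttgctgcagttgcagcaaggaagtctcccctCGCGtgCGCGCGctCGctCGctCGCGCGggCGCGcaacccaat
Grik4 (chr9:42944372-42944621, minus strand): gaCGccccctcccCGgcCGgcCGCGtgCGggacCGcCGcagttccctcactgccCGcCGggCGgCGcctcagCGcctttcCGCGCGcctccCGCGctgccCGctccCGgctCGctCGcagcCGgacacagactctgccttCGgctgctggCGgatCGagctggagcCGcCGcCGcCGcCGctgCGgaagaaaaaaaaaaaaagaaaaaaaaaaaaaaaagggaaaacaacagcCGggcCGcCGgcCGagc
Grm7 (chr6:110645262-110645511, plus strand): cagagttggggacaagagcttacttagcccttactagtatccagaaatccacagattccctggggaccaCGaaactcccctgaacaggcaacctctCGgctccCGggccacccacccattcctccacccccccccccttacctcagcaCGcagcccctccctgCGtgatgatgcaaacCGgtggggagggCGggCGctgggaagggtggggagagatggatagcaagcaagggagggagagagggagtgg
Grm8 (chr6:28135147-28135396, minus strand): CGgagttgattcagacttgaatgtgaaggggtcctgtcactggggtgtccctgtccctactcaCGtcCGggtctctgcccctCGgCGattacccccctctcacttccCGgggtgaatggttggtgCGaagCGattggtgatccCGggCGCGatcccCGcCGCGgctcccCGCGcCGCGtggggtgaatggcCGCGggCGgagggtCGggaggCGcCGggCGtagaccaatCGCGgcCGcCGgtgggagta
Chrnb2 (chr3:89764633-89764882, minus strand): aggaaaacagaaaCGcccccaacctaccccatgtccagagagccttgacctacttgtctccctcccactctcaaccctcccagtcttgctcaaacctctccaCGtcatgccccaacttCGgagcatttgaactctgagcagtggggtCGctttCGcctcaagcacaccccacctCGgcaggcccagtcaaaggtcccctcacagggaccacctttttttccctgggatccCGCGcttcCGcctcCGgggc
A window from 250 bases before to 50 bases after the start was found for 47 of the 67 members. The core, which reads AGCACC, any 2 bases and then GGACAG, searched on both strands, lay in 1 of 56 member windows, that of Gria2, where it begins 170 bases before the start and reads CTGTCCGCGGTGCT on the strand of the gene. It lay in 0.0517% of all 32851 windows. The longer form, with TTC before that core, was in no member window and in 0.0122% of all. The left part TTCAGCACC was in 1 member window, that of Grm2 (0.371% of all), and the right part, GGACAG, any base and then GCC, in 2, those of Gabrg1 and Gabrr2 (0.521% of all), and the left part lies within the longer form. None of the 4 motifs was in the windows of the 5 called members. The 250 bases printed hold 36 CG dinucleotides in Grik4, 29 in Grm8, 16 in Gria4, 10 in Chrnb2 and 8 in Grm7, against a median of 6 over all windows. The other listed starts hold 8 and 2 in Grm8 and 9 in Grm7, so that the count of Grm8 depends on the start taken. A match is a description of letters and not of binding.

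In the middle turn, the comparison ran the other way without passing the call threshold. limma called 0 of 33 members, as against 0.179% of all genes, and 13 had an unadjusted p under 0.05 (25.4% of all genes). With DESeq2 at the same thresholds, the study reported more changed genes in the middle turn than in the basal turn. It also reported synapse terms among the genes lowered in the apical and middle turns. The count of 0 thus belongs to this fit and cannot be read as a property of the middle turn. Chrnb2 had a log2 change of −1.38 ± 0.31 (SE; limma adjusted p = 0.0467) and Gria4 of −1.75 ± 0.41 (limma adjusted p = 0.0525). There were 2 members, with Chrnb2 among them, at an adjusted p under 0.05, against 3.99% of all genes. In 14 members the 2 homozygous libraries were below the 2 wild-type libraries and in 6 above, against 28.2% and 31.3% of all genes. The 14 included all 4 AMPA genes, Grin1, Grik2 to Grik4, Grm7, Grm8, Chrna4 and Chrnb2. Of these, Gria1 stood at 6.90 and 0.157 in wild-type against 0.133 and 0.0675 in homozygous libraries, near the floor in all but wild-type middle 1. The median change was −0.25 over members and 0.04 over all genes. The neuron marker sum was lower as well, at 416 and 55.7 against 1732 and 1854, and with those markers as a covariate the median of the members was −0.12. Schwann cell markers were lower too, at 359 and 450.4 against 2081 and 2141, and supporting cell markers higher, at 371 and 577 against 196 and 242. Gjb6 made up most of that supporting cell sum, at 285 and 448 against 124 and 176. Tecta, Otog and Fgfr3 were higher as well, whereas Slc1a3 and Sox2 overlapped, Sox2 at 6.12 and 9.43 against 10.7 and 7.81. The part of these cells was not tested.

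In the apical turn, limma called 0 of 33 members (0.179% of all genes), with 9 at an unadjusted p under 0.05 (16.4% of all genes). The homozygous libraries were both lower in 21 members and both higher in 5, against 32.1% and 26.9% of all genes. The 21 held all 4 AMPA, all 4 tested NMDA and 4 of 5 kainate genes. Of the AMPA genes, Gria1 was near the floor here, at 0.196 and 0.106 in wild-type against 0.0142 and 0.0891 in homozygous libraries. Among the members of smallest p were Chrne at 0.91 ± 0.27 (limma adjusted p = 0.155) and Glrb at 0.75 ± 0.23 (limma adjusted p = 0.171). The median was −0.27 over members and −0.03 over all genes. All 3 tested muscle nicotinic genes lay above their wild-type libraries here, whereas the neuron marker sum lay below its wild-type values.

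**Figure D3:**
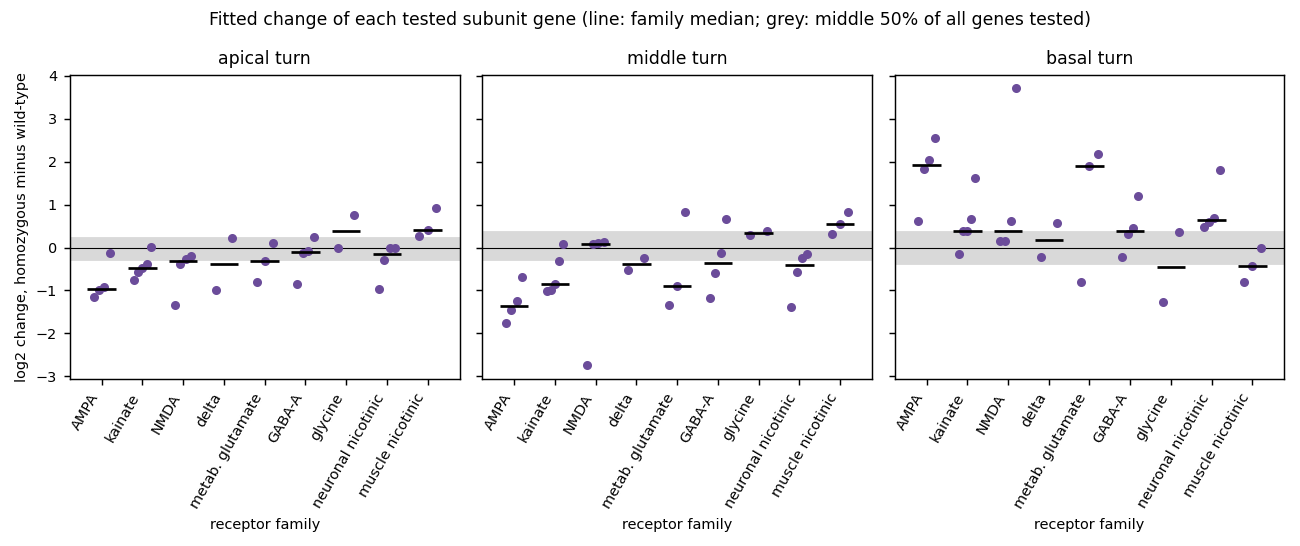
Fitted log2 change, homozygous minus wild-type, of each tested subunit gene, a panel for each turn, with a point for each gene, a line for the family median and a grey band for the middle 50% of all genes tested. AMPA medians lie at −0.96, −1.35 and 1.93, and muscle nicotinic medians at 0.42, 0.55 and −0.42, in apical, middle and basal order.

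Averaged over the turns, no genotype change was called. limma called 0 of 33 members for the mean of the 3 turns (0.376% of all genes), with 4 at an unadjusted p under 0.05 (18.6% of all genes) and a median of 0.02. Glrb had a log2 change of 0.47 ± 0.13 (limma adjusted p = 0.109) and Chrne of 0.48 ± 0.15 (limma adjusted p = 0.140). No member had homozygous libraries all on the same side in all 3 turns, against 1.53% of all genes higher and 2.06% lower. The opposite signs of the turns were tested directly, as the genotype effect in the basal turn minus that in the middle turn. Here 8 of 33 members were called, all higher, against 8.91% of all genes called and 6.33% called higher. Grin1 differed by 6.44 ± 1.07 on the log2 scale (limma adjusted p = 0.00484), Gria4 by 4.29 ± 0.58 (limma adjusted p = 0.00291), Grm7 by 3.51 ± 0.53 (limma adjusted p = 0.00372), Chrnb2 by 3.18 ± 0.44 (limma adjusted p = 0.00298) and Gria3 by 3.07 ± 0.56 (limma adjusted p = 0.00666). Grm8 and Grik4 differed by 2.79 ± 0.37 and 2.61 ± 0.40 (limma adjusted p = 0.00284 and 0.00383). In 10 members the homozygous libraries were below wild-type in the middle turn and above it in the basal turn (14.9% of all genes), and in 3 the reverse (12.7%). With the neuron markers as a covariate the count was 0, although the differences of the named members kept their direction. Calls over all genes with the covariate are not printed here, so that this 0 cannot be read as particular to the members. Leaving out a library moved the count between 2 and 11.

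The wild-type libraries alone gave no called difference between their basal and middle turns, at 0 of 33 members and 0 genes of all tested (limma), with 10 members at an unadjusted p under 0.05 (15.2% of all genes). Gria4 had a log2 difference, basal minus middle, of −1.93 ± 0.41 (limma adjusted p = 0.117), Grm7 of −1.74 ± 0.37 (limma adjusted p = 0.119) and Grm8 of −1.04 ± 0.26 (limma adjusted p = 0.133). Both wild-type basal libraries were below both wild-type middle libraries in 11 members and above them in 5, against 19.7% and 21.9% of all genes. These wild-type libraries also enter the genotype effects above.

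The levels were next set against the neuron markers, none of which is a member. Per 1000 FPKM of summed neuron markers, Grin1 stood between 9.64 and 13.2 in 9 libraries, at 16.5 in homozygous basal 1, and at 5.01 and 5.73 in wild-type and homozygous basal 2. Its own level differed 233-fold between the lowest and the highest library, and this ratio 3.29-fold, the smallest range of the tested members for which it can be formed, 5 of 33 being listed at 0 in some library. Gria4 stood between 4.63 and 8.83 per 1000 in 9 libraries of either genotype. It was higher in homozygous apical 1 and reached 51.3 and 75.9 in homozygous middle 2 and wild-type basal 1, the libraries with the lowest neuron marker sums. Grik4 had the third smallest range, from 0.644 to 14.9. By contrast, the ratio of Glrb ranged from 26.5 to 3643. This look at ratios was chosen after the levels were seen, and it describes 12 libraries whose FPKM share a common denominator.

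**Figure D4:**
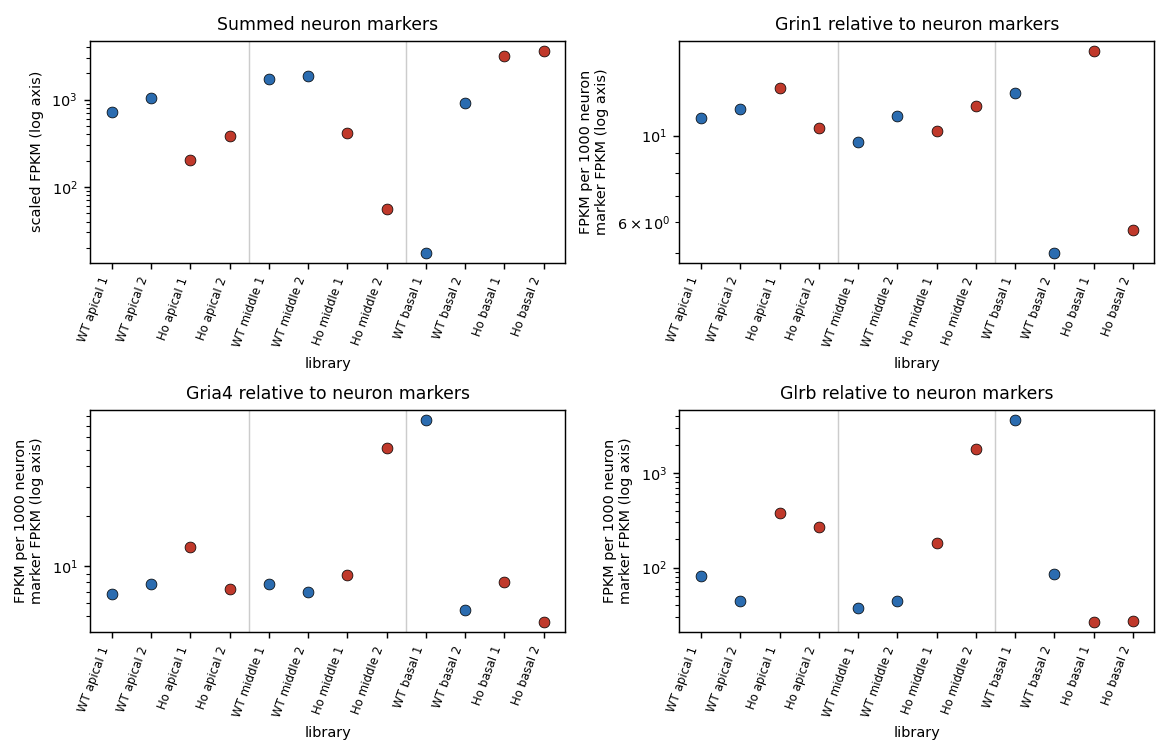
Summed neuron markers by library, and Grin1, Gria4 and Glrb per 1000 FPKM of those markers, on log axes, with wild-type in blue and homozygous in red. Grin1 keeps a narrow band from 5.01 to 16.5 while the neuron markers range from 17.6 to 3621, and Glrb spreads from 26.5 to 3643.

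Some members were concentrated in few libraries, and those outside the naming rule were singled out after their values were seen. Chrna6, a partner of Chrnb3 in nicotinic receptors of particular brain nuclei, stood at 4.37 in wild-type basal 2 and 11.3 in homozygous basal 2, and between 0 and 0.230 in the other 10 libraries. Chrnb3 stood at 1.15 and 5.33 in the same 2 libraries and at most at 0.410 elsewhere, and Chrna5 at 0.534 and 1.39 and at most at 0.0936 elsewhere. These genes thus separated the basal libraries numbered 2 from those numbered 1 in each genotype, and not the genotypes. Gria1 stood at 6.90 in wild-type middle 1, 2.92 in wild-type basal 2, and 1.42 and 3.76 in homozygous basal, against 0.0142 to 0.263 in the other 8 libraries. Gabrb1, a GABA-A beta subunit, showed the same 4 libraries at 1.68, 0.579, 0.655 and 1.20, against 0.146 to 0.243 elsewhere. The oligodendrocyte markers were high in these 4 libraries, and summed astrocyte markers too, at 536, 218, 225 and 371 against 46.1 to 83.6 in the other 8, and their part in the levels was not tested. Gabrp, the pi subunit, known from epithelia, was at 5.48 in wild-type basal 2 and listed at 0 in every other library. Chrnb4 stood at 1.89 and 0.747 in homozygous apical libraries and 0.0634 and 0.0725 in wild-type apical libraries, and did not reach 1 FPKM in 2 libraries.

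**Figure D5:**
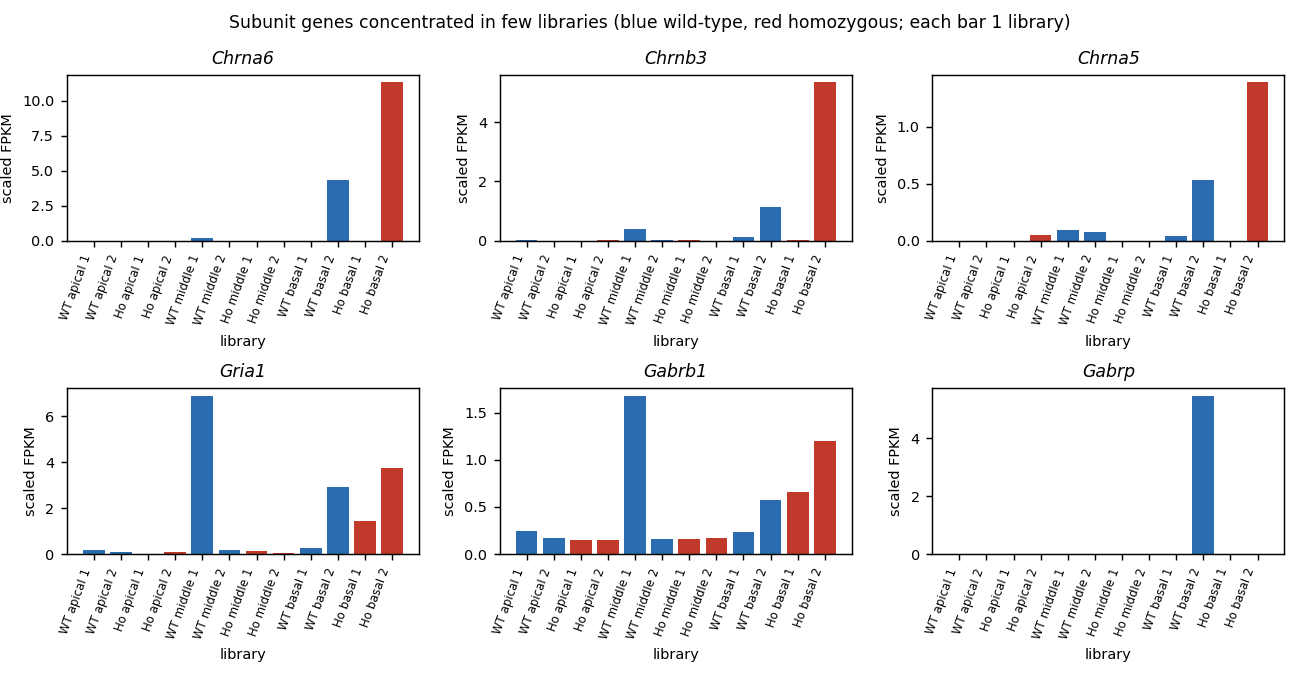
Scaled FPKM of 6 subunit genes in each library, a bar per library, wild-type in blue and homozygous in red. Chrna6, Chrnb3 and Chrna5 peak in homozygous basal 2 at 11.3, 5.33 and 1.39, Gria1 and Gabrb1 peak in wild-type middle 1 at 6.90 and 1.68, and Gabrp appears in wild-type basal 2 at 5.48.

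The genes that serve these receptors were followed through a list of 69, comprising auxiliary subunits, scaffolds, transporters, transmitter enzymes and the GABA-B and muscarinic receptors, of which 67 were found and 55 tested. In the basal turn 6 were called, against 4.29% of all genes tested, all of them higher, among them Slitrk3, Dlgap1, Ric3, Cacng7 and Dlg2. Slitrk3, a postsynaptic adhesion protein of inhibitory synapses, was at 0.505 and 1.59 in wild-type basal libraries against 10.2 and 5.35, a rise of 2.09 ± 0.35 (limma adjusted p = 0.00809). In the difference between the basal and middle turns 13 were called, against 8.91% of all genes, all of them higher and among them Dlgap1, a scaffold of excitatory synapses, at 3.65 ± 0.48 (limma adjusted p = 0.00282). In the apical and middle turns, the mean of the turns and the wild-type comparison limma called 0, with 12, 23, 11 and 16 at an unadjusted p under 0.05, against 16.4%, 25.4%, 18.6% and 15.2% of all genes. Dlgap1 stood at −1.66 ± 0.34 (limma adjusted p = 0.0399) in the middle turn, and Cacng5, an AMPA receptor auxiliary subunit, had the smallest p in the apical turn, at −1.47 ± 0.35 (limma adjusted p = 0.0983). For the mean of the turns, Chrm1, a muscarinic receptor, had 0.75 ± 0.16 (limma adjusted p = 0.0471) and Shank2 −0.54 ± 0.14 (limma adjusted p = 0.0791). Between the wild-type basal and middle turns Dlgap1 had −1.69 ± 0.34 (limma adjusted p = 0.112).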

How the data were processed

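RNA-seq libraries of 12 samples were made from cochlear turns. The authors trimmed reads with fastp 0.20.0, aligned them to mm10 with STAR 2.7.3a, kept unique alignments, and deposited FPKM values calculated with StringTie 2.0 (versions from the submitters' processing notes). The strand setting and the number of mice per library are not given in the sources used here. Median-of-ratios factors from 11552 genes (0.917 to 1.06) scaled the libraries. Genes were tested if 2 or more libraries reached 1 FPKM, which left 16215. Their log2 values, after adding a pseudocount of 1 that understates changes of low genes, entered limma 3.58.1 under R 4.3.3, with a mean for each of 6 groups, eBayes with a trend, two-sided, Benjamini-Hochberg adjusted over all 16215 genes. Calls needed an adjusted p below 0.01 and more than a 2-fold change, as in the study. Subunit shares were tested by exact permutation of genotypes within turns (216 assignments). The fit was tested on simulated data with changes planted in the homozygous basal group. It called 55 of 100 genes with a 4-fold change and 0 unchanged genes. Of 100 genes with a 2-fold change, which lies at the call threshold, it called 8. A count of 0 called members therefore does not show that no member changed. Coordinates are those of the deposited table (mm10), of which 47 of 67 equal the GENCODE annotation of GRCm38, and exon overlaps come from that annotation. Depth is unknown, and no interval for counting error is given. Python 3.11.15 and matplotlib 3.10.9 made the figures.

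The members and lists were chosen with earlier results of these data known. Named genes were the 3 members of highest mean per family, in each contrast the called members (at most 8) or the 3 of smallest p, the subunits of the shares, any member listed at 0 everywhere, and the 2 list genes of smallest p per contrast. Alternatives were a pseudocount of 0.1, no filter, unscaled FPKM, quantile normalization, a block by library number, a neuron marker covariate, the compared libraries alone, an adjusted p under 0.05, and each library left out. Leaving out both second basal libraries was added after the data were seen. Some genes that this rule names are not reported here, although counts and medians include them. Chat and Slc18a3, and the protein sequences, were not analysed here.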

Additional observations from a re-analysis of the deposited data

Results flagged for a closer look

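The genotype effect differed between the basal and the middle turn for 8 members, by a test of the difference itself on the log2(scaled FPKM + 1) scale. The differences, basal minus middle, were 6.44 for Grin1, 4.29 for Gria4, 3.51 for Grm7, 3.18 for Chrnb2, 3.07 for Gria3, 2.79 for Grm8 and 2.61 for Grik4 in the 7 given here. In each of these 7 the homozygous libraries were below the wild-type libraries in the middle turn and above them in the basal turn, as the summed neuron markers were, and with those markers as a covariate no member was called. Calls over all genes with the covariate are not printed here. The covariate left the 7 differences between 1.78 and 3.08, with limma adjusted p from 0.0821 to 0.173, and the median of the tested members at 0.55 against 0.75 without it. The covariate itself differs between the groups, and the part of neurons in these differences was not tested. Hair cell markers summed to 20.7 and 89.6 in wild-type middle and 7.96 and 4.87 in homozygous basal libraries. They came to 206 and 370 in homozygous middle and 111 and 98.9 in wild-type basal libraries. Schwann cell markers ran the reverse way, while oligodendrocyte markers overlapped. Whether middle and basal pieces match in position between the genotypes was not tested.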

How the results depend on the processing

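With 2 libraries a group and unknown depth, the counts of called members depended on the settings while the log2 changes of the named members kept their direction under every alternative run. The 5 members called in the basal turn became 10 at an adjusted p under 0.05 (limma), 2 with a pseudocount of 0.1, and 0 with no filter, the neuron marker covariate or only the compared libraries. Without both second basal libraries, an alternative chosen after seeing the data, the count was 8. The 8 members called for the difference between the basal and middle turns became 14 at an adjusted p under 0.05 and 0 with no filter, the covariate or only the compared libraries, and the middle turn gave 2 at an adjusted p under 0.05. The cause was not tested. Calls over all genes are not printed here for most of these settings or for the fits without a single library. The lower counts therefore cannot be read as particular to the receptor genes. Neither labels nor methods link libraries of the same number, and whether these share a batch is not stated. Correlations of same-numbered deviations lay between −0.43 and 0.45. With a block by library number 0 members were called in the basal turn and 7 for the difference between turns, and the other counts stayed at 0.

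The median change of the members moved with a pseudocount of 0.1 to −0.75 (apical), −0.85 (middle), 0.68 (basal) and 1.54 (basal minus middle). With no filter, which tests more low genes, it was −0.042, −0.072, 0.151 and 0.157, and −0.028 for wild-type basal minus middle. It was −0.17 in the apical turn with quantile normalization, −0.20 there and 0.55 for basal minus middle with the covariate, and 0.57 for basal minus middle without both second basal libraries.

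Leaving out a library gave 0 to 6 called members in the basal turn, 2 to 11 for basal minus middle and 0 elsewhere. The basal count was 0 without any 1 of the apical libraries, wild-type basal 1 or homozygous basal 1, and 1 without any 1 of the middle libraries or homozygous basal 2. The basal-minus-middle count was 2 without wild-type middle 1, wild-type middle 2 or homozygous middle 2, 4 without homozygous basal 1 and 11 without wild-type basal 2. Medians ranged from −0.31 to −0.18 (apical), −0.48 to 0 (middle), 0.26 to 0.72 (basal), −0.11 to 0.09 (mean of the turns), 0.36 to 1.10 (basal minus middle) and −0.41 to −0.17 (wild-type). Differences of shares ranged from 0.796 to 4.76 points for Gria2, −0.623 to 0.126 for Grin2b, −0.199 to 0.0627 for Glra1 and −5.15 to 0.0973 for Chrne. As log ratios with 0.1 added, Glra1 and Chrne changed sign, to 0.40 and 1.01.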

Other observations

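Among genes of transmitter supply, the vesicular glutamate transporter of neurons Slc17a7 stood at 0.0271 and 14.1 in wild-type basal libraries against 139 and 65.7 in homozygous ones, and that of inner hair cells, Slc17a8, at 28.2 and 4.94 against 0.905 and 0.756. The summed hair cell markers came to 111 and 98.9 in wild-type basal libraries against 7.96 and 4.87 in homozygous ones. By immunofluorescence the study found hair cells intact in homozygous mice at P14, and these sums do not count cells. The GABA-making enzyme Gad1 stood at 3.13 and 3.64 against 3.34 and 1.67 in the apical turn, at 0.426 and 0.691 in wild-type against 1.67 and 2.69 in homozygous middle libraries, and at 0.488 and 4.86 against 0.0633 and 0.305 in the basal turn. Homozygous libraries were thus higher in the middle turn and lower in the basal turn, with limma adjusted p = 0.282 and 0.129. These genes were chosen after their values were seen.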
